A study of Rattus norvegicus with 10 samples.

Results

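Genes that mark the birth of neurons and cell division were examined in the hippocampus of rats with and without epilepsy evoked from the amygdala. The set held 10 genes, chosen by name for their place in the path from dividing stem cell to young neuron: Sox2, Mcm2, Mki67, Top2a, Eomes, Igfbpl1, Sox11, Sox4, Neurod1 and Dcx. The count matrix has 32041 rows, one per RefSeq transcript, and 8 of the 10 genes were matched to a row by transcript identifier, each to a single row. Eomes and Top2a could not be matched and were not analysed here. All 8 matched genes passed the filter on low counts that left 22447 rows, called features below, for testing.

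All animals were male Sprague-Dawley rats with an electrode in the left lateral amygdala. The 5 sham rats (rats 1 to 5) were age-matched and received no current. The 5 stimulated rats (rats 6 to 10) received 60 Hz pulse trains of 400 µA for 30 min, prolonged if needed, to evoke status epilepticus, which was later stopped with diazepam. According to the methods, spontaneous seizures were seen in every stimulated rat before tissue was taken. The left hippocampal piece holding the CA3 field and the dentate gyrus was taken 3 months later, and polyadenylated RNA of each rat was sequenced on its own, in reads of 36 cycles.

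New granule neurons are made throughout life in the subgranular zone of the dentate gyrus. Radial glia-like stem cells that carry Sox2 give rise to dividing progenitors, these become neuroblasts that switch on Neurod1, Sox4, Sox11 and Dcx, and the cells then mature into granule neurons. Seizures are well known to alter this sequence in rodents. Several of the markers are shared with other cells: Sox2 is also made by astrocytes, Neurod1 by granule neurons that are already mature, and Mki67 and Mcm2 by any dividing cell. In bulk tissue, fewer cells of a type and less RNA per cell cannot be told apart. Nor do bulk counts show which cells made the RNA of a member, Sox11 included.

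Libraries held 13552309 to 24086059 aligned reads. The share of reads left unaligned was 41.4%, 42.9% and 45.1% in stimulated rats 8, 9 and 10 and 32.0% to 37.1% in the other 7 rats, among them rat 7, and its part in the results was not tested. Markers of the dissected tissue were present in all rats. Prox1, which specifies dentate granule neurons, ranged from 22.3 to 35.9 CPM (read counts relative to the scaled library size, which makes rats comparable) among sham rats and from 21.3 to 52.0 CPM among stimulated rats. Grik4, a kainate receptor subunit abundant in CA3, ranged from 138.4 to 160.3 and from 141.8 to 166.9 CPM. Fos, the classic immediate early gene of neuronal activity, divided the stimulated rats: it stood at 106.3, 50.3 and 61.7 CPM in rats 7, 9 and 10 and at 5.61 and 5.24 CPM in rats 6 and 8, beside 3.26 to 5.32 CPM in sham rats.

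Sox11 and Neurod1 had the lowest p of the members, in opposite directions, and the promoter windows of both are shown because the levels of these genes moved against each other across the rats. Each sequence is the 250 bases before the gene's RefSeq start, from RefSeq on the GRCr8 build, 5′ to 3′ on the gene's own strand. Capitals mark an E-box, CANNTG, the letters that Neurod1 and other basic helix-loop-helix factors bind. The Sox11 window lies at chr6:49738795-49739044 and the Neurod1 window at chr3:84770455-84770704, both on the minus strand.
Sox11: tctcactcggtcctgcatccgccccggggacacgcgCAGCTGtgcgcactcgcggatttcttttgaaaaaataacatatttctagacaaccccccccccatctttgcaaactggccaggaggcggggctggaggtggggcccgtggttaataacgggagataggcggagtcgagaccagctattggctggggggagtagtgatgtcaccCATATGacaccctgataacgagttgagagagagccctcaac
Neurod1: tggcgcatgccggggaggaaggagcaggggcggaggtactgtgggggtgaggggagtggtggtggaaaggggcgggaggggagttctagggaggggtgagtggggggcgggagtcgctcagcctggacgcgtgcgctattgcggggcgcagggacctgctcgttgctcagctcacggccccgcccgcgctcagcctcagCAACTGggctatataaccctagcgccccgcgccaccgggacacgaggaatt

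The Sox11 window held 2 E-boxes and the Neurod1 window 1, and 65.5% of all 33469 windows of this length held at least 1. Neither window held an AP-1 site (TGANTCA, the letters bound by Fos and Jun dimers), which 6.34% of all windows held, or a cyclic AMP response element (TGACGTCA), which 1.59% held. Both strands were searched, and the letters of an E-box and those of an AP-1 site can overlap. A window without a match says only that these letters are not in it.

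It was first asked whether any member differed between stimulated and sham rats. None of the 8 passed an adjusted p of 0.05 in edgeR's quasi-likelihood test, in which 0% of all 22447 features passed (2214 had an unadjusted p under 0.05). With the unadjusted p under 0.05, Sox11 was higher in stimulated rats, beside 6.70% of all features, and Neurod1 was lower, beside 3.16%. The groups did not overlap for 0 of the 8 members, beside 1.29% of all features. The log2 fold changes of the members, stimulated over sham, lay between -0.76 and 3.08 with a median of 0.15, and the median of all features was 0.01. The plot of fold changes shows the members in the order of their place in the sequence.

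**Figure D1:**
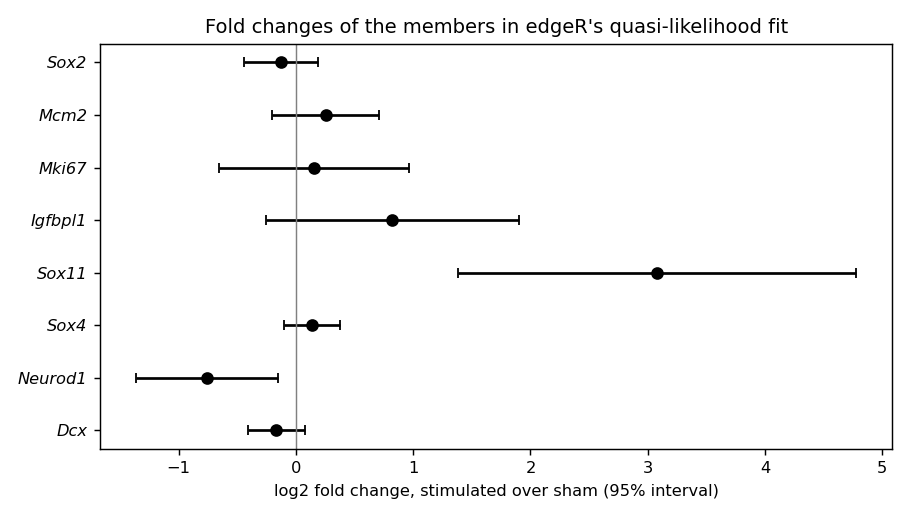
Log2 fold change of each member, stimulated over sham, on the horizontal axis, with its 95% interval from edgeR's quasi-likelihood fit over all features. The interval lies above 0 for Sox11 and below 0 for Neurod1 and spans 0 for the other 6 genes.

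Among the transcription factors of young neurons, Sox11, a SoxC factor that drives neuronal differentiation, spanned the widest range. Its level in sham rats 1 to 5 was 1.57, 0.84, 2.23, 0.70 and 0.75 CPM. In stimulated rats 6 to 10 it was 1.18, 10.7, 2.17, 33.5 and 3.66 CPM. Rats 7, 9 and 10 thus lay above all sham rats, and rats 6 and 8 lay within the sham range. Sham counts were low, 11 to 41 reads, so that the value of sham rat 2 had an exact 95% Poisson interval of 0.42 to 1.50 CPM, but the 656 reads of rat 9 gave 30.9 to 36.1 CPM, and such intervals cover counting error only.

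The log2 fold change of Sox11 was 3.08 (SE 0.790, unadjusted p = 0.00167, adjusted p = 0.376 in edgeR's quasi-likelihood test), an 8.46-fold difference with a 95% interval of 2.61 to 27.5. Sox11 was 82nd of all features by p. Without rat 9, which carried the highest level, the fold change was 3.67 and the unadjusted p 0.00566. The exact test of edgeR, an older test of the same counts, gave Sox11 an adjusted p of 0.0255 and 0.370% of all features a call in this direction, and DESeq2 gave it an adjusted p of 0.0875. Over all alternatives the adjusted p of Sox11 ranged from 0.0255 to 0.661. Sox11 is also on the list of changed genes that the study drew from these animals, so its direction here is no independent evidence. The same holds for Bhlhe22, Gadd45g, Aqp4, Pecam1, Esam, Fos, Egr2, Arc, Pim1, Nptx2 and Ccnf, which other paragraphs name.

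Sox4, the other SoxC factor of the set and a close relative of Sox11 in sequence, did not show this pattern. Its level was 29.8, 27.8, 22.7, 26.5 and 22.6 CPM in sham rats 1 to 5. In stimulated rats 6 to 10 it was 28.2, 26.0, 31.4, 25.2 and 31.6 CPM. The groups overlapped, and rats 7 and 9, the highest for Sox11, were the lowest stimulated rats for Sox4. Its log2 fold change was 0.14 (SE 0.112, adjusted p = 0.711 in edgeR's test), with a 95% interval of the fold from 0.93 to 1.30. How reads that match both genes were counted was not stated.

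Neurod1, the basic helix-loop-helix factor needed for granule neuron differentiation and survival, was lower in most stimulated rats. Sham rats 1 to 5 had 24.8, 30.2, 26.1, 30.8 and 30.9 CPM. Stimulated rats 6 to 10 had 28.5, 8.31, 23.9, 9.54 and 14.3 CPM. In 4 of 5 stimulated rats the level was below that of all sham rats, by little in rat 8, and rat 6 was within the sham range. Rats 7, 9 and 10 carried 29.1%, 33.4% and 50.2% of the sham mean. The score of mature granule cell markers was the mean log2 CPM over 6 genes of the cells that also make Neurod1. Lct, 1 of the 6, was counted at 14 reads or fewer per rat, which adds counting error to the score. The score differed from the sham mean by -0.43 in rat 7, -0.37 in rat 8, 0.15 in rat 9 and -0.30 in rat 10. Sham rats lay between -0.32 and 0.29. The summed level of these genes was below all sham rats (416.0 to 512.5 CPM) in rats 7 and 10, at 267.2 and 381.4 CPM, and 526.6 CPM in rat 9, and the part of granule cells in the Neurod1 level was not tested.

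The log2 fold change of Neurod1 was -0.76 (SE 0.282, unadjusted p = 0.0179, adjusted p = 0.420 in edgeR's quasi-likelihood test), a 1.69-fold lower level. It ranged from -1.05, without rat 6, to -0.59, without rat 7, over all alternatives, and its unadjusted p lay between 0.00127 and 0.0419. Its SD on the log2 scale was 0.15 in sham and 0.780 in stimulated rats, a ratio of 5.21, where the median ratio over all features was 1.37. The ratio was above 1 for 7 of the 8 members and for 69.5% of all features.

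Sox11 and Neurod1 ordered the stimulated rats in nearly opposite ways. Rats 7, 9 and 10 had the 3 highest Sox11 levels and the 3 lowest Neurod1 levels of the 10 rats, and they were also the rats with high Fos. Among sham rats, rats 1 and 3 had the highest Sox11 and the lowest Neurod1. No correlation is given, because the rats fell into separate clusters. The part of neuronal activity in these levels was not tested.

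**Figure D2:**
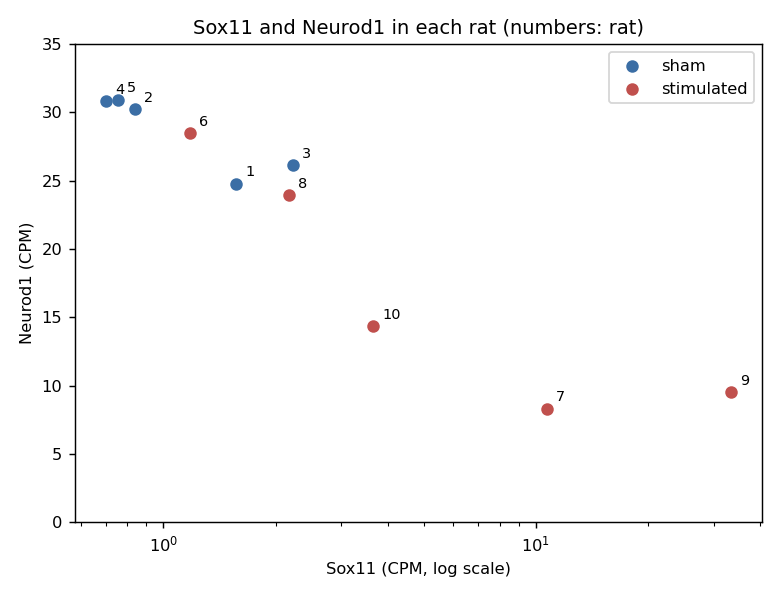
Level of Sox11 (CPM, log scale) against that of Neurod1 (CPM), with 1 numbered point per rat, blue for sham and red for stimulated. Rats 7, 9 and 10 stand apart at 3.66 to 33.5 CPM of Sox11 and 8.31 to 14.3 CPM of Neurod1.

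Dcx encodes doublecortin, the microtubule-associated protein most used to count newborn neurons. Its level was 25.5, 26.9, 29.6, 26.3 and 23.3 CPM in sham rats 1 to 5. In stimulated rats 6 to 10 it was 23.1, 29.3, 20.7, 21.5 and 22.7 CPM. Rats 6, 8, 9 and 10 were below all sham rats, rat 6 by little, and rat 7 was above all other stimulated rats. The log2 fold change of Dcx was -0.17 (SE 0.114, unadjusted p = 0.170, adjusted p = 0.651 in edgeR's test), and the 95% interval of the fold was 0.75 to 1.06. Without rat 7 the log2 fold change was -0.27 with an unadjusted p of 0.0184 and an adjusted p of 0.645. The rats with the highest Sox11, 7 and 9, thus lay at opposite ends of the stimulated range of Dcx or near them, at 111.4% and 81.5% of the sham mean.

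Igfbpl1, an insulin-like growth factor binding protein homologue found in neuroblasts, was counted at 10 to 89 reads per rat. Sham rats 1 to 5 had 1.22, 0.76, 1.80, 0.54 and 1.38 CPM. Stimulated rats 6 to 10 had 1.22, 4.13, 0.64, 3.21 and 0.83 CPM. Rats 7 and 9 were above all sham rats, as for Sox11, whereas rat 10 was within the sham range. The 95% Poisson intervals of rats 7 and 9, 3.32 to 5.09 and 2.47 to 4.11 CPM, lay above the highest sham value, although the lower one overlapped the interval of sham rat 3, 1.24 to 2.52 CPM. The log2 fold change was 0.82 (SE 0.502, unadjusted p = 0.124, adjusted p = 0.604 in edgeR's test), and without rat 7 it was 0.36.

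**Figure D3:**
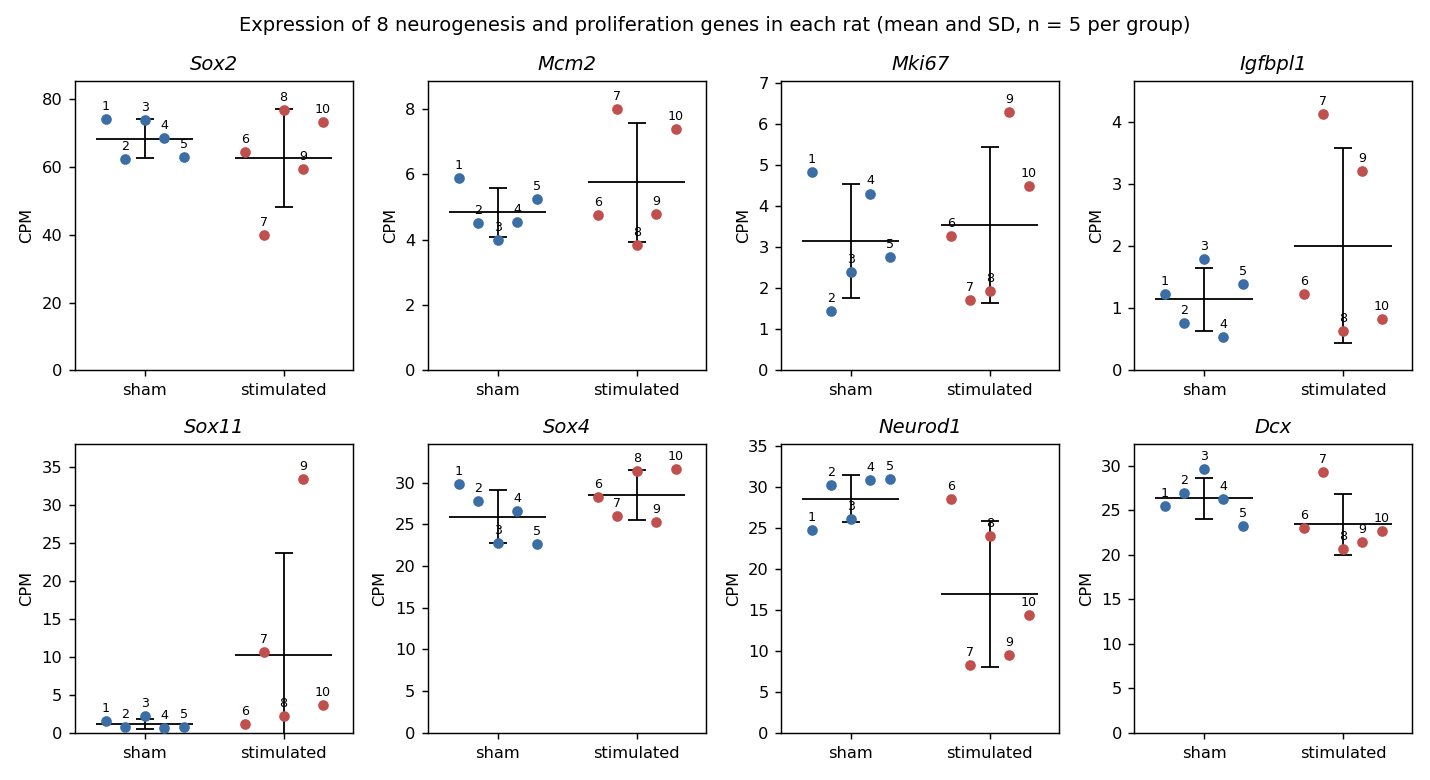
Level (CPM) of the 8 matched genes in each rat, with the rat's number above its point, and the group mean with SD as a line and bar (n = 5 per group, the bar of Sox11 running below 0 is clipped). Sox11 and Igfbpl1 were highest and Neurod1 lowest in rats 7 and 9, while Sox4 and Dcx kept within 20.7 to 31.6 CPM in all rats.

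None of the stem cell and cell cycle members had an unadjusted p under 0.05 in edgeR's quasi-likelihood test. Sox2, which keeps neural stem cells undifferentiated, had 74.3, 62.4, 74.0, 68.5 and 62.9 CPM in sham rats 1 to 5 and 64.4, 40.0, 76.8, 59.5 and 73.2 CPM in stimulated rats 6 to 10. Rats 7 and 9 were below all sham rats, rat 7 by far, at 58.4% of the sham mean. In the same rat the score of oligodendrocyte progenitor markers, the mean log2 CPM over 8 genes of a cell type that also carries Sox2, was the lowest of all rats, at 5.16 against 5.57 to 5.82 in the other rats, and its part in the low Sox2 level was not tested. The log2 fold change of Sox2 was -0.13 (SE 0.147, adjusted p = 0.811 in edgeR's test), with a 95% interval of the fold from 0.74 to 1.14.

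Mcm2, a subunit of the replicative helicase that licenses DNA for copying, had 5.88, 4.50, 3.97, 4.55 and 5.24 CPM in sham rats 1 to 5. It had 4.75, 7.99, 3.83, 4.79 and 7.38 CPM in stimulated rats 6 to 10. Rats 7 and 10 were above all sham rats and rat 8 was below them. The log2 fold change was 0.25 (SE 0.213, adjusted p = 0.718 in edgeR's test), with a 95% interval of the fold from 0.87 to 1.64.

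Mki67 encodes the Ki-67 protein, present in all cells that are in cycle. Sham rats 1 to 5 had 4.83, 1.45, 2.39, 4.30 and 2.77 CPM, and rats 6 to 10, the stimulated ones, had 3.26, 1.72, 1.92, 6.27 and 4.49 CPM. Both groups varied more than 3-fold, by 3.33 times among sham and 3.65 times among stimulated rats, and rat 9 was the single rat above all sham rats. With 19 to 123 reads per rat, the Poisson intervals of sham rats 1 and 2, 3.85 to 5.99 and 0.87 to 2.26 CPM, did not overlap, so that sham rats differed by more than counting error. Between the groups, the log2 fold change was 0.16 (SE 0.376, adjusted p = 0.921 in edgeR's test), and the 95% interval of the fold, 0.64 to 1.95, holds both a lower and a nearly doubled level. Mki67 and Mcm2 were both above their sham means in rats 1 and 10 and both below them in rats 2, 3 and 8, whereas in rat 7 Mki67 was at 54.6% and Mcm2 at 165.4% of the sham mean.

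**Figure D4:**
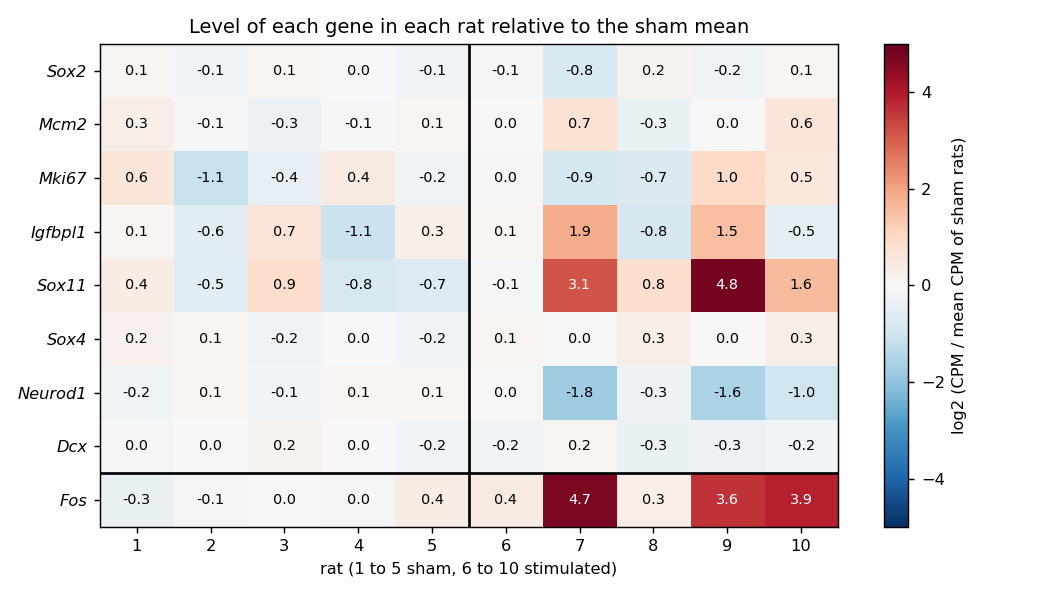
Level of each member and of Fos in each rat as the log2 of its CPM over the mean CPM of sham rats (blue lower, red higher, the number printed in each cell). Sox11 is reddest in rat 9, at 27.4 times the sham mean, and Neurod1 bluest in rat 7, at 29.1% of it, the rows of Sox4 and Dcx stay near 0, and Fos is high in rats 7, 9 and 10.

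The wider path was described with lists of genes for each stage, which include the members. Of 14 markers of stem and radial glia-like cells, all were tested, and at an unadjusted p under 0.05 (the cut-off for all lists here, with the background shares given above) 3 were higher and 1 was lower in stimulated rats. The higher ones were Hes1, a Notch effector, with a log2 fold change of 0.90 (SE 0.275), Vim, which encodes vimentin, with 1.06 (SE 0.332), and Gfap, the intermediate filament of astrocytes and stem cells, with 1.06 (SE 0.385). Gfap and Vim are also made by astrocytes in general. Pax6, a progenitor transcription factor, was lower, with a log2 fold change of -0.41 (SE 0.182). Hes5, another Notch effector on the list, did not pass the cut-off and had a log2 fold change of -0.46 (SE 0.352). Of the 14 genes, 11 had a log2 fold change above 0. The median log2 fold change of the list was 0.19. Gfap stood at 6469, 2079 and 5396 CPM in rats 7, 9 and 10. Rats 6 and 8 had 1326 and 1375 CPM, beside 1327 to 1927 CPM in sham rats.

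Of 10 genes of intermediate progenitors, 6 were tested, 2 were higher and 0 were lower, with a median log2 fold change of 0.20. Gadd45g, a growth arrest and DNA damage response gene, had a log2 fold change of 2.02 (SE 0.654). It was counted at 53.2, 11.5 and 6.45 CPM in rats 7, 9 and 10. Its level was 3.71 and 3.32 CPM in rats 6 and 8, beside 2.90 to 5.03 CPM in sham rats. Tfap2c, an AP-2 transcription factor, had a log2 fold change of 0.68 (SE 0.278) at 0.87 to 1.59 CPM in sham rats.

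Of 22 genes of immature neurons, 19 were tested. Sox11 was the only one of these that was higher, Neurod1 and Bhlhe22 were lower, and the median log2 fold change was -0.10. Bhlhe22, another basic helix-loop-helix factor of neurons, ranged from 122.6 to 168.9 CPM among sham rats. Rats 6 to 10 had 114.1, 59.7, 175.2, 85.9 and 92.6 CPM. As with Neurod1, rats 7, 9 and 10 were the lowest, and rat 6 was also below all sham rats. Its log2 fold change was -0.47 (SE 0.216, unadjusted p = 0.0498, adjusted p = 0.506 in edgeR's test).

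Genes of DNA replication and mitosis came next. Of 20 DNA replication genes, 17 were tested, 2 were higher and 0 were lower, and the median log2 fold change was 0.16. Gins2, a subunit of the replication helicase complex, had a log2 fold change of 0.24 (SE 0.101), and Ccne1, cyclin E1, had 0.33 (SE 0.149). Of 23 genes of mitosis, 20 were tested, and 0 were higher or lower at the cut-off in edgeR's quasi-likelihood test, with a median log2 fold change of 0.18 and a range from -1.03 (Kif11, a spindle motor) to 1.35 (Ube2c, a ubiquitin-conjugating enzyme of mitotic exit), both named after their values were seen and both at 16 reads or fewer per rat. The summed level of the tested mitosis genes was 20.5 to 24.5 CPM in sham and 21.8 to 31.2 CPM in stimulated rats. None of the listed genes of any stage passed an adjusted p of 0.05.

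Other cell types of the tissue were described in the same way. Of 6 tested genes of mature granule cells and 5 of CA3 pyramidal cells, 0 were higher or lower at the cut-off in edgeR's quasi-likelihood test, nor were any of 8 tested genes of oligodendrocyte progenitors or 5 of choroid plexus and ependyma. At the same cut-off, 4 of 10 astrocyte genes, 2 of 8 microglial genes and 5 of 8 endothelial genes were higher and 0 were lower, with median log2 fold changes of 0.07, 0.18 and 0.49. The genes with the lowest p were Aqp4, the astrocytic water channel, with a log2 fold change of 0.49 (SE 0.129), C1qb, a complement subunit of microglia, with 0.51 (SE 0.189), and Pecam1, an endothelial adhesion molecule, with 0.81 (SE 0.185). Slc1a2 (0.36), Slc1a3 (0.22) and Gfap were the other astrocyte genes, C1qa (0.39) the other microglial gene, and Esam (0.80), Cdh5 (0.65) and Flt1 (0.38) were next among endothelial genes. The astrocyte genes below 0 were Aldh1l1 (-0.27), Aldoc and Gjb6 (-0.02). Of the 8 microglial genes, 7 were above 0, among them Aif1 (0.10) and Cx3cr1 (0.16), and P2ry12 was below it (-0.25). Of the 8 endothelial genes, 7 were above 0 and Slco1a4 was below it (-0.06). The most abundant markers that did not pass the cut-off had log2 fold changes of -0.25 (C1ql2 of granule cells), -0.04 (Cpne4 of CA3), -0.11 (Aldoc of astrocytes), 0.09 (Bcas1 of the oligodendrocyte lineage), 0.19 (Csf1r of microglia), 0.26 (Cldn5 of endothelium) and -0.08 (Foxj1 of ependyma). Every tested marker of astrocytes, microglia, endothelium and oligodendrocyte progenitors was counted in every rat. The endothelial score was above all sham rats in 5 of 5 stimulated rats, at 4.16 to 5.12 against 4.03 to 4.14 in mean log2 CPM, while the summed endothelial level overlapped, at 175.2 to 358.3 CPM in stimulated and 177.1 to 195.0 CPM in sham rats. The microglial score was above all sham rats in rats 7 and 9, as Igfbpl1 was, by 0.46 and 0.32 above the sham mean, where sham rats reached 0.19, and in rat 10, where Sox11 was also above all sham rats, it was at 0.17. The score of immature neurons was above all sham rats in the same 2 rats, by 0.20 and 0.13, where sham rats reached 0.06. It was lowest in rat 10, at -0.18. Its list holds the members Sox11, Igfbpl1, Sox4, Neurod1 and Dcx, so the score is no separate evidence on them. Sox11 alone stood at 27.4 times the sham mean in rat 9, and a score without it was not calculated. The summed level of the immature neuron list was 3092.6 CPM in rat 7, above all sham rats (2204.4 to 2447.4 CPM). In rat 9 it was 2123.5 CPM, below all sham rats. The summed level of the microglial genes was 328.5 to 423.2 CPM in sham and 359.7 to 571.9 CPM in stimulated rats.

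The 10 immediate early genes were all higher at the cut-off, with a median log2 fold change of 2.18, and Fos (3.47), Fosb (3.33), Egr2 (3.32) and Arc (2.66) had the lowest p. Their score exceeded the sham mean by 2.20, 2.58 and 2.44 in rats 7, 9 and 10 and differed from it by 0.29 and -0.22 in rats 6 and 8, where sham rats lay between -0.22 and 0.28. These are the rats in which Sox11 was high and Neurod1 low, and the part of either list in the members' levels was not tested.

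**Figure D5:**
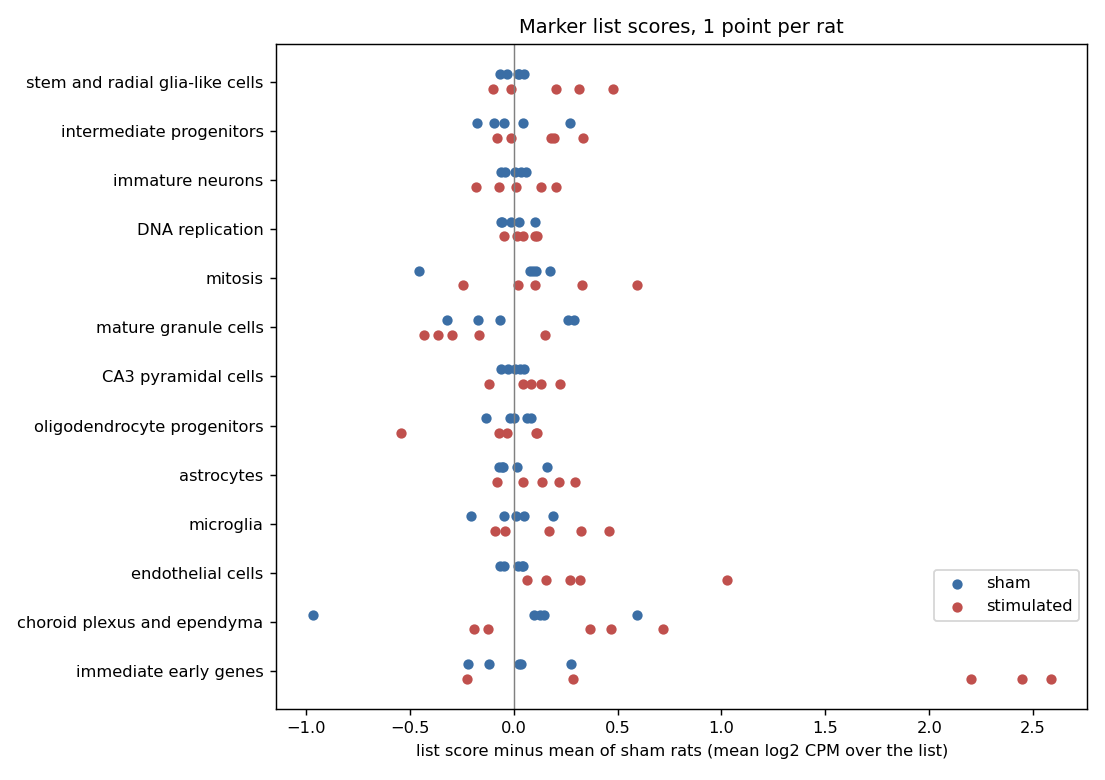
Score of each marker list (mean log2 CPM over its tested genes) minus the mean of the sham rats, with 1 point per rat, blue for sham and red for stimulated. The immediate early genes of rats 7, 9 and 10 lie 2.20 to 2.58 above the sham mean, the endothelial scores of the 5 stimulated rats lie above those of all sham rats, and the lists of immature neurons, DNA replication and mitosis overlap between the groups.

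Genes with a profile most like that of Sox11 and of Dcx were sought among 11176 other genes, by the root mean square difference over the 10 rats of log2 CPM centred on the sham mean of each gene. For Sox11 the nearest were Pim1 (0.414 on the log2 scale), Baz1a (0.657), Nptx2 (0.660), Ccnf (0.686) and Bdnf (0.71), where the median of all genes was 1.97. Pim1, a serine/threonine kinase, had 0.860, 8.92, 1.60, 17.9 and 3.15 CPM in rats 6 to 10 and 0.754 to 1.51 CPM in sham rats, with the stimulated rats in the same order as for Sox11. Bdnf, the neurotrophin, had 91.8 and 71.7 CPM in rats 7 and 9 and 23.3 CPM in rat 10. It had 4.84 and 4.79 CPM in rats 6 and 8, beside 4.27 to 6.75 CPM in sham rats. For Dcx the nearest were Kif3a (0.0884), Fbxl17 (0.0967), Ddx27 (0.0980), Pacsin1 (0.103) and Drp2 (0.106), with a median of 0.312 over all genes. None of the 5 genes nearest to Sox11 is a member or on a list of the neurogenesis stages, and the same holds for Dcx. These lists hold 10 to 23 genes each, beside 11176 genes compared, so their absence among 5 genes says little.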

How the data were processed

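The deposited values are raw counts of reads per RefSeq transcript record and rat, with no normalization. According to the methods and labels, alignment by the authors used BWA and the rn4 genome. Handling of strand and of reads shared between close copies is not given in the sources used here. The row of unaligned reads (32.0 to 37.1% of reads in rats 1 to 7, 41.4 to 45.1% in rats 8 to 10) was set aside. Groups came from the treatment label, and columns were matched by rat number. The study's methods count fewer stimulated rats for this assay than the labels do, so all 10 were used and each was left out in turn.

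As in the study, features with a summed count under the 30th percentile (46 counts) were dropped, and TMM scaling was used. Stimulated and sham rats were compared over all features with edgeR 4.0.16 (quasi-likelihood test, no covariate, Benjamini-Hochberg adjustment) in R 4.3.3. It was checked first on simulated data with the same spread for all features in both groups. That check does not give the power of the test in these rats. The SE is the log2 fold change over the root of F. CPM used TMM-scaled library sizes, and log2 CPM a prior count of 2. Symbols came from RefSeq for GRCr8, by transcript identifier, for 12970 tested features (57.8%), with 1 row per symbol, the highest mean count. Named beside the members were, per list, up to 4 genes with the lowest unadjusted p under 0.05, for other cell types the most abundant marker, Fos, and the 5 genes most like Sox11 or Dcx. Prox1, Grik4 and the further values of single rats were chosen after they were seen. Members and lists were chosen with earlier results of these data known. Alternatives used DESeq2 1.42.0 and limma 3.58.1, other scaling and filters and the omission of each rat.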

Additional observations from a re-analysis of the deposited data

Results flagged for a closer look

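The members' CPM and the list scores gave 42 groups of 5 values. In each, the distance of the highest or lowest rat from its neighbour was divided by the whole range and set against Dixon's critical value of 0.71. It was exceeded in 4 groups, where chance gives about 1 in 20, or 2.1.

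Stimulated rat 7 had 29.3 CPM of Dcx, against 20.7 to 23.1 CPM in the other stimulated rats, a gap of 0.724 of the range. The same rat had the lowest score of oligodendrocyte progenitor markers among stimulated rats, 5.16 against 5.63 to 5.82 in mean log2 CPM (0.718 of the range). Sham rat 2, the library with the fewest aligned reads, had a mitosis score of -0.73 against -0.19 to -0.10 in the other sham rats (0.852 of the range). Several mitosis genes had few reads, such as Ccnb2, Ube2c and Cdk1 with means of 5.1, 5.2 and 6.8 per rat. This adds counting error to the score. The summed level of the mitosis genes was 20.5 CPM in sham rat 2 and 23.3 to 24.5 CPM in the other sham rats. Stimulated rat 10 had an endothelial score of 5.12 against 4.16 to 4.41 (0.737 of the range).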

How the results depend on the processing

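Across 18 alternatives, 142 of the 144 fold changes of members kept their direction. The other 2 were of Mki67, whose log2 fold change ranged from -0.15 to 0.34 over the fits that each left out 1 rat, and was below 0 without sham rat 2 or stimulated rat 9. No feature passed an adjusted p of 0.05 with other scaling or filters, limma-voom, adjusted deviances (an alternative added after the data were seen) or any rat left out. The exact test of edgeR called 89 features (83 higher, 6 lower), with 1 member, Sox11, among them, and DESeq2 called 32 (29 higher, 3 lower) and 0 members. The cause was not tested. Sox11 and Neurod1 had an unadjusted p under 0.05 in all 18 alternatives, and none of the other members did, except Dcx without rat 7 and Igfbpl1 without rat 8. Counts were low for Mki67, Igfbpl1 and, in sham rats, Sox11, which widens their counting error. No paired analysis was possible because the rat numbers do not pair sham with stimulated rats.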
